A study of Mus musculus with 4 samples.

Results

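The Olfr1440 neurons are the mature olfactory sensory neurons (OSNs) that were assigned the odorant receptor (OR) gene Olfr1440 as their only receptor identity in the deposited cell table. They numbered 54 of 9791 OSNs with a receptor identity, or 0.552%, and formed the 7th largest of 960 populations, a population being all neurons with the same receptor. The data came from the main olfactory epithelium, the sensory lining of the nasal cavity, of 4 male C57BL/6 mice (C57BL/6J in the study's methods) aged 8 weeks, with 1 library per mouse. All 4 mice formed 1 resting group, and the library was made from dissociated cells sorted as live and nucleated (positive for Hoechst, negative for DRAQ7). Droplet-based 3′ RNA-seq counted unique molecular identifiers (UMIs), so that copies of 1 captured molecule counted once. The libraries held 23157467 to 32382702 UMIs in 4746 to 6003 barcodes. Of the barcodes, 54 occurred in 2 libraries (108 cells), and 0 of these cells were Olfr1440 neurons.

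Each mature OSN transcribes 1 allele of 1 OR gene out of a very large family, and the axons of neurons with the same receptor converge in the olfactory bulb. Odorants bound by the receptor activate the G protein Gnal, which stimulates the adenylyl cyclase Adcy3. The cAMP formed opens a cyclic nucleotide-gated channel (Cnga2, Cnga4, Cngb1), and the calcium that enters opens the chloride channel Ano2. The receptor's signalling is also known to set the level of axon guidance and adhesion molecules, and S100a5, a calcium-binding protein, is a known correlate of neuronal activity in OSNs.

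Olfr1440 (ENSMUSG00000046650) is a protein-coding gene on the plus strand of chromosome 19, from 12387279 to 12401584 in the GRCm38 build, and encodes a protein of 315 amino acids. The number of Olfr1440 neurons was 14, 20, 7 and 13 in mice 1 to 4. As a share of OSNs with an identity, this was 0.520%, 0.854%, 0.398% and 0.433%, with a mean of 0.551% ± 0.208 (SD, n = 4). Mouse 2 lay above the other mice.

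The median Olfr1440 count per neuron was 47.5, 37, 54 and 37 UMIs in mice 1 to 4, with a range over single neurons of 11 to 158. Another receptor was detected in 3, 3, 2 and 4 of these neurons, with at most 2 UMIs in any 1 neuron. Since receptor counts defined the population, these values describe the assignment and are not a finding.

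Outside the population Olfr1440 UMIs were rare. Of the 9737 other OSNs with an identity, 7 had an Olfr1440 UMI, with 1 UMI each. A single UMI was also seen in 5 of 866 immature OSNs of type iOSN1 (0.577%), in 1 of 284 precursors (INP) and in 1 of 544 basal cells of type HBC2. The same was seen in 1 of 1768 type 2 microvillar cells, a non-neuronal type at a similar median depth (5081 UMIs against 4815.5 in the Olfr1440 neurons). It was seen in 0 of 336 sustentacular cells, which allows a share of cells with an Olfr1440 UMI of up to 0.893% (counting error only, and not a limit on cells that express it).

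Higher counts were found in 10 retained cells. One was a mature OSN without an identity (166 Olfr1440 UMIs, with 107 UMIs of other receptors), and another was of the basal cell type HBC1 (39 UMIs, with 11 of Omp). The rest were immature OSNs of the deposited type iOSN2. Of 1006 such cells, 8 (0.795%) held Olfr1440, each with 43 to 127 UMIs. The exact binomial 95% interval of 0.344 to 1.56% pools the cells of all mice and covers counting error only. The 8 cells came from all 4 mice (4, 1, 1 and 2 cells). By mouse the share was 1.42%, 0.386%, 0.503% and 0.752%. In these 8 cells Gap43, a growth-cone protein of immature neurons, stood at 9.47 UMIs per 10000 UMIs of non-receptor genes, against 8.75 in the other 998 iOSN2 cells and 0.112 in the Olfr1440 neurons. Cd55, a cell-surface complement regulator, stood at 2.15 per 10000 in the 8 cells, at 0.545 in the other iOSN2 cells and at 19.4 in the Olfr1440 neurons. S100a5 stood at 61.3 per 10000 in the 8 cells, at 162 in the other iOSN2 cells and at 63.3 in the Olfr1440 neurons. Of the S100a5 UMIs in the 8 cells, 348 of 427 came from 1 cell of mouse 4, the one with the most UMIs (15654), which also held 30 UMIs of other receptors. Without it, a choice made after seeing the data, the other 7 cells stood at 14.6 per 10000 for S100a5, at 6.10 for Gap43 and at 1.85 for Cd55. These are pooled levels of few cells and were not tested.

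In the deposited clustering of mature OSNs made without receptor genes, 50 of the 54 Olfr1440 neurons lay in the cluster named Cd55+ V., a group of ventral neurons with Cd55. The share was 85.7%, 100%, 100% and 84.6% in mice 1 to 4 (mean 92.6% ± 8.58, SD, n = 4), and it was the same when the clustering had used receptor genes. The other 4 neurons, 2 in mouse 1 and 2 in mouse 4, lay in the cluster named Ventral. They held 12219 UMIs in all, 1 of them from Cd55 (0.825 per 10000, against 20.3 in the 50 neurons of the Cd55+ V. cluster). S100a5 stood at 136 per 10000 in these 4 neurons and at 59.9 in the other 50.

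Marker genes of mature and of ventral OSNs were detected as the labels give them. Omp, the marker of mature OSNs, was detected in 54 of 54 Olfr1440 neurons and Adcy3 in 50. Nfix, a ventral marker, was detected in 49 of 54, and Nqo1, a dorsal marker, in 0 of 54, which allows a share of neurons with an Nqo1 UMI of up to 5.56% (counting error only, and not a limit on neurons that express it). Type 2 microvillar cells, which are not neurons, had an Omp UMI in 18.9%, Adcy3 in 3.79%, Nfix in 37.2% and Nqo1 in 2.43%. Detection alone is therefore not specific to OSNs. Basal cell markers were at 0 UMIs. Immune, precursor, microvillar and glial markers summed to 5, 7, 6 and 6 UMIs, and blood cell markers to 15. Sustentacular markers summed to 0.394, 0.530, 0.454 and 3.39 UMIs per 10000 in mice 1 to 4, and 16 of the 18 UMIs in mouse 4 came from 1 neuron. The other neurons of the cluster had 0.448 to 0.951 per 10000.

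The main comparison asked in which non-receptor genes the Olfr1440 neurons differed from the other OSNs of the Cd55+ V. cluster. This cluster held 352 OSNs, of which the Olfr1440 neurons were 14.2%, and the 302 others (92, 70, 67 and 73 in mice 1 to 4) came from 50 populations. UMIs of non-receptor genes were summed per mouse and group, to 44017 to 94337 UMIs for the Olfr1440 neurons and 335149 to 563582 for the others. The median UMI count per neuron was 4815.5 and 5471, and its part in the results was not tested beyond thinning. All levels below are UMIs per 10000 UMIs of non-receptor genes. Log2 changes are from edgeR's quasi-likelihood test with mouse as a block and Benjamini-Hochberg adjustment over all genes tested. Each SE is the size of the log2 change over the square root of the test's F statistic, and is not a spread over mice. EdgeR shares information on dispersion between genes, so a small adjusted p does not measure a gene's own spread over the 4 mice. Because the reference neurons were grouped by the same transcriptomes, genes that define the cluster were alike in them by construction.

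Of 3825 genes tested, 4 were higher in Olfr1440 neurons (0.105%) and 7 were lower (0.183%), 11 in all (0.288%). Without adjustment 264 genes had a p under 0.05. The median log2 change over all genes was 0.00. The higher genes were Cmip, Tsc22d1, Plxna1 and Sorbs2, and the lower genes were S100a5, Pcp4l1, Faim2, Dlg2, Pcdh17, Gm49542 and Prxl2a.

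S100a5 (ENSMUSG00000001023, chromosome 3, 90608523 to 90611780) carried the most counts of these. Its level was 76.3, 66.3, 55.0 and 46.5 in the Olfr1440 neurons of mice 1 to 4 and 140, 132, 103 and 119 in the other neurons. The groups did not overlap, and S100a5 was lower in 4 of 4 mice. It fell by 1.04 on the log2 scale (SE 0.10, edgeR adjusted p = 3.11e-24).

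Pcp4l1 (chromosome 1, 171173262 to 171196268), which encodes a small calmodulin-binding protein, was at 0, 0.424, 0.454 and 0.188 in the Olfr1440 neurons and at 3.35, 4.21, 3.13 and 3.73 in the others. It was lower in every mouse, without overlap, by −3.81 log2 (SE 0.35, edgeR adjusted p = 3.11e-24). Faim2, an inhibitor of Fas-mediated apoptosis in neurons (chromosome 15, 99497012 to 99528165), was represented by 1 UMI in 54 Olfr1440 neurons, in mouse 2, and by 217 UMIs in the others, where the level was 1.28, 1.46, 1.34 and 1.04. The others were 34.4 times higher (counting interval 6.11 to 1364, edgeR adjusted p = 4.26e-10).

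Dlg2, a postsynaptic density scaffold that also marks a subset of ventral OSNs, was at 0.263, 0.318, 0 and 0.376 in the Olfr1440 neurons and at 0.568, 1.63, 0.634 and 2.33 in the others (log2 change −2.31, SE 0.44, edgeR adjusted p = 8.75e-05). The values did not overlap, but most of the other neurons' UMIs came from few populations. The Olfr835 neurons stood at 12.4, counting all neurons of a population, also those outside the cluster. The median of the 13 other populations most frequent in the cluster with at least 10 neurons was 0.452, against 0.261 in Olfr1440. Without mouse 2 or mouse 4 the adjusted p was 0.0785 and 0.118, and in DESeq2 it was 0.504.

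Pcdh17, a non-clustered protocadherin that mediates homophilic adhesion, was at 0.131, 0.530, 0 and 0 in the Olfr1440 neurons and at 0.905, 1.32, 0.951 and 1.07 in the others (log2 change −2.29, SE 0.47, edgeR adjusted p = 0.000575). The groups did not overlap. Of the 6 Pcdh17 UMIs in the Olfr1440 neurons, 5 came from mouse 2, and without that mouse the log2 change, then resting on 1 UMI, was −3.97. The call was lost without mouse 4 (edgeR adjusted p = 0.129) and in DESeq2 (0.504). The long non-coding RNA Gm49542 was lower in 4 of 4 mice, but its Olfr1440 value in mouse 4 (2.82, against 0.656, 0.318 and 0) lay within the range of the others (2.25 to 3.43). It was lower by −1.76 on the log2 scale (edgeR adjusted p = 6.04e-08, and 0.107 without mouse 2), and by −2.92 without mouse 4, which held 15 of the 23 UMIs. DESeq2 did not call it. Prxl2a, a peroxiredoxin-like protein, was at 4.20, 3.29, 5.0 and 4.33 against 6.92, 6.70, 6.20 and 5.49, without overlap (log2 change −0.66, edgeR adjusted p = 0.0123). Its adjusted p was 0.29, 0.853 and 0.0855 without mice 1, 2 and 4.

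Among the higher genes, Cmip (chromosome 8, 117257064 to 117459430), an adaptor protein of signalling pathways, was at 9.58, 14.7, 16.4 and 13.2 in the Olfr1440 neurons and at 6.51, 8.90, 9.31 and 6.98 in the others. Every Olfr1440 value lay above every other value, and the log2 change was 0.73 ± 0.12 (SE, edgeR adjusted p = 1.08e-06). Plxna1 (chromosome 6, 89316314 to 89362620), a semaphorin receptor of axon guidance, was at 3.81, 4.45, 4.09 and 4.70 against 1.99, 2.66, 3.03 and 3.10, also without overlap (log2 change 0.68, SE 0.17, edgeR adjusted p = 0.0349). Its adjusted p was 0.476, 0.592 and 0.275 without mice 1, 2 and 4. The call was lost in 9 of 14 alternatives, among them DESeq2, thinned neurons and equal weighting of the populations.

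Tsc22d1, a transcriptional regulator of the TSC22 family, was at 14.2, 15.7, 12.0 and 15.0 against 9.40, 9.10, 9.35 and 12.3. It was higher in 4 of 4 mice, although the lowest Olfr1440 value lay below the highest of the others (log2 change 0.52, edgeR adjusted p = 0.00436). The adjusted p was 0.334 and 0.765 without mice 1 and 2. Tsc22d1 lost its call in 7 of 14 alternatives, also in DESeq2, in thinned neurons and with populations weighted equally. Sorbs2, an adaptor protein of the actin cytoskeleton, is named here after its values were seen. It was at 7.88, 6.47, 3.63 and 6.02 against 2.98, 3.81, 4.03 and 3.85, higher in 3 of 4 mice (log2 change 0.77, edgeR adjusted p = 0.000158). The adjusted p was 0.604, 0.0718 and 0.116 without mice 1, 2 and 4. Sorbs2 lost its call in 7 of 14 alternatives, also in DESeq2, with no filter, in thinned neurons and with populations weighted equally.

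**Figure D1:**
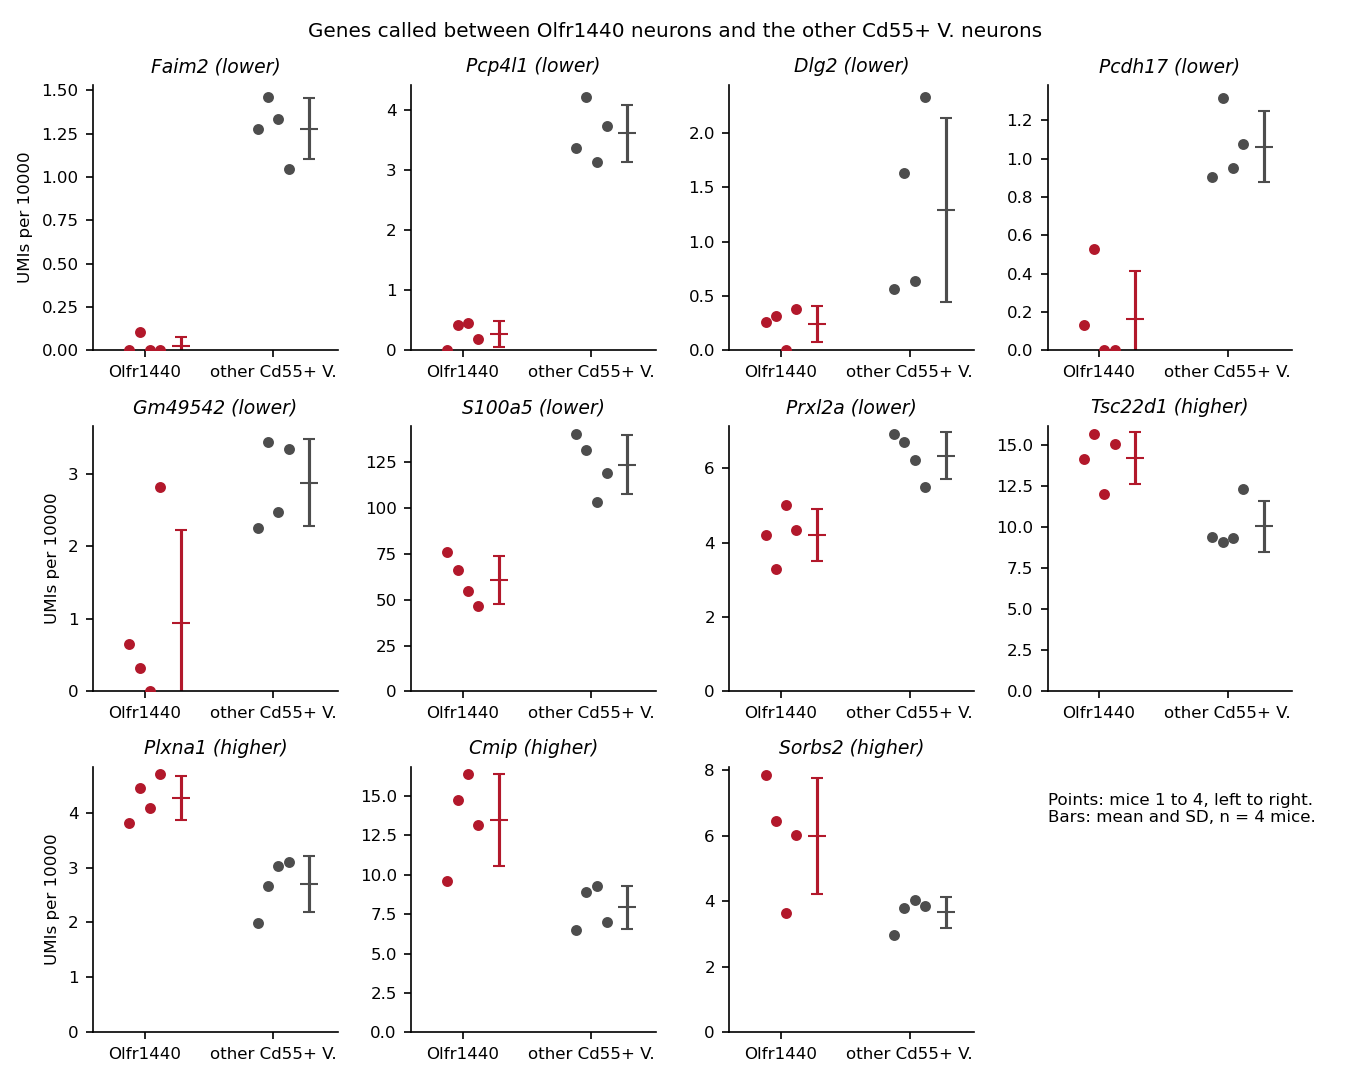
UMIs per 10000 non-receptor UMIs (vertical axis, from 0) of the 11 genes called between the Olfr1440 neurons (red) and the other neurons of the Cd55+ V. cluster (grey), with 1 point per mouse and bars for mean and SD over 4 mice. The values did not overlap for Plxna1 and Cmip, which were higher, and for 6 of the 7 lower genes, Gm49542 being the exception. Called genes were selected for a difference, and overlap was not counted over all genes tested.

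The called genes fell into the gene lists as follows, where 0.105% of all genes tested were higher and 0.183% lower. Of the olfactory transduction genes, 0 of 21 tested passed in either direction in edgeR, and 6 had an unadjusted p under 0.05 (median log2 change −0.13). Adcy3 was at 5.51, 6.36, 3.86 and 10.7 against 7.47 to 9.36 (adjusted p = 0.443), and Cnga2 at 3.15, 3.92, 3.41 and 2.63 against 4.12 to 5.21 (adjusted p = 0.551). The Cnga2 groups did not overlap, while those of Adcy3 did. Omp differed by −0.07 and Gnal by −0.05 on the log2 scale, both within the spread between mice.

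Of the axon guidance and adhesion genes, 1 of 15 tested was higher (Plxna1) and 0 lower. Kirrel2, a homophilic adhesion molecule whose level depends on OSN activity, was at 3.81, 5.62, 10.5 and 4.51 against 3.14 to 4.89, with overlap and a log2 change of 0.55 (edgeR adjusted p = 0.0925). Of the activity-regulated genes 1 of 8 was lower, S100a5, with a median log2 change over the list of 0.13. Of the OSN subset markers 3 of 7 were lower (Pcp4l1, S100a5, Dlg2), and of the non-clustered protocadherins 1 of 4 (Pcdh17). Cd55 itself was at 17.9, 17.9, 23.9 and 20.5 against 16.8 to 17.7, without overlap but with a log2 change of only 0.18 (edgeR adjusted p = 0.844).

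In the other tested lists 0 genes were called. These were 14 genes of the unfolded protein response (median log2 change −0.08), 13 voltage-gated and potassium channels (0.00), 15 presynaptic genes and neuromodulator receptors (−0.02), 14 transcription factors of OSNs (−0.02) and 9 immature neuron genes (0.05). The same held for 22 cilia transport genes (0.11), 5 zone markers (0.10), 76 cytoplasmic ribosomal proteins (0.02), 78 nuclear oxidative phosphorylation genes (−0.05) and 9 mitochondrially encoded genes (−0.03). Without adjustment, 8 of the oxidative phosphorylation genes and at most 3 genes of each other list had a p under 0.05. DESeq2 called 0 genes in these lists.

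The other populations most frequent in the cluster were not uniform, and the place of Olfr1440 among them differed between genes. Over the 14 populations that were most frequent in Cd55+ V. and had at least 10 neurons, S100a5 ran from 5.60 in Olfr827 to 320 in Olfr1438-ps1, with Olfr1440 at 63.3, the 10th highest. Pcp4l1 was 10th and Faim2 12th, so that Pcp4l1 was at or below 0.505 per 10000 in 6 of the 13 others as well. Gm49542 was 9th at 0.859, or 6th from the lowest, with Olfr870 at 0. Prxl2a was 11th, Dlg2 12th and Pcdh17 13th. Of the higher genes, Plxna1 and Sorbs2 were 1st, Tsc22d1 2nd and Cmip 3rd. The Cmip level of 13.2 was next to those of Olfr870 (13.7) and Olfr827 (13.3). Among 353 populations with at least 10 neurons over the whole epithelium, Sorbs2 was highest in Olfr1440 (6.31, median 1.45), next to Olfr1322 of the same cluster at 6.20. Plxna1 was 4th, Cmip 5th, Cd55 6th and Tsc22d1 48th. These ranks pool the neurons of all mice and carry no test, and the mean of Sorbs2 over mice in Olfr1440 was 6.00. All neurons of a population were counted, also those outside the cluster. The share inside it was as low as 53.3% in Olfr235 and 58.5% in Olfr523. The spread between populations is therefore not that of the cluster's neurons alone.

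**Figure D2:**
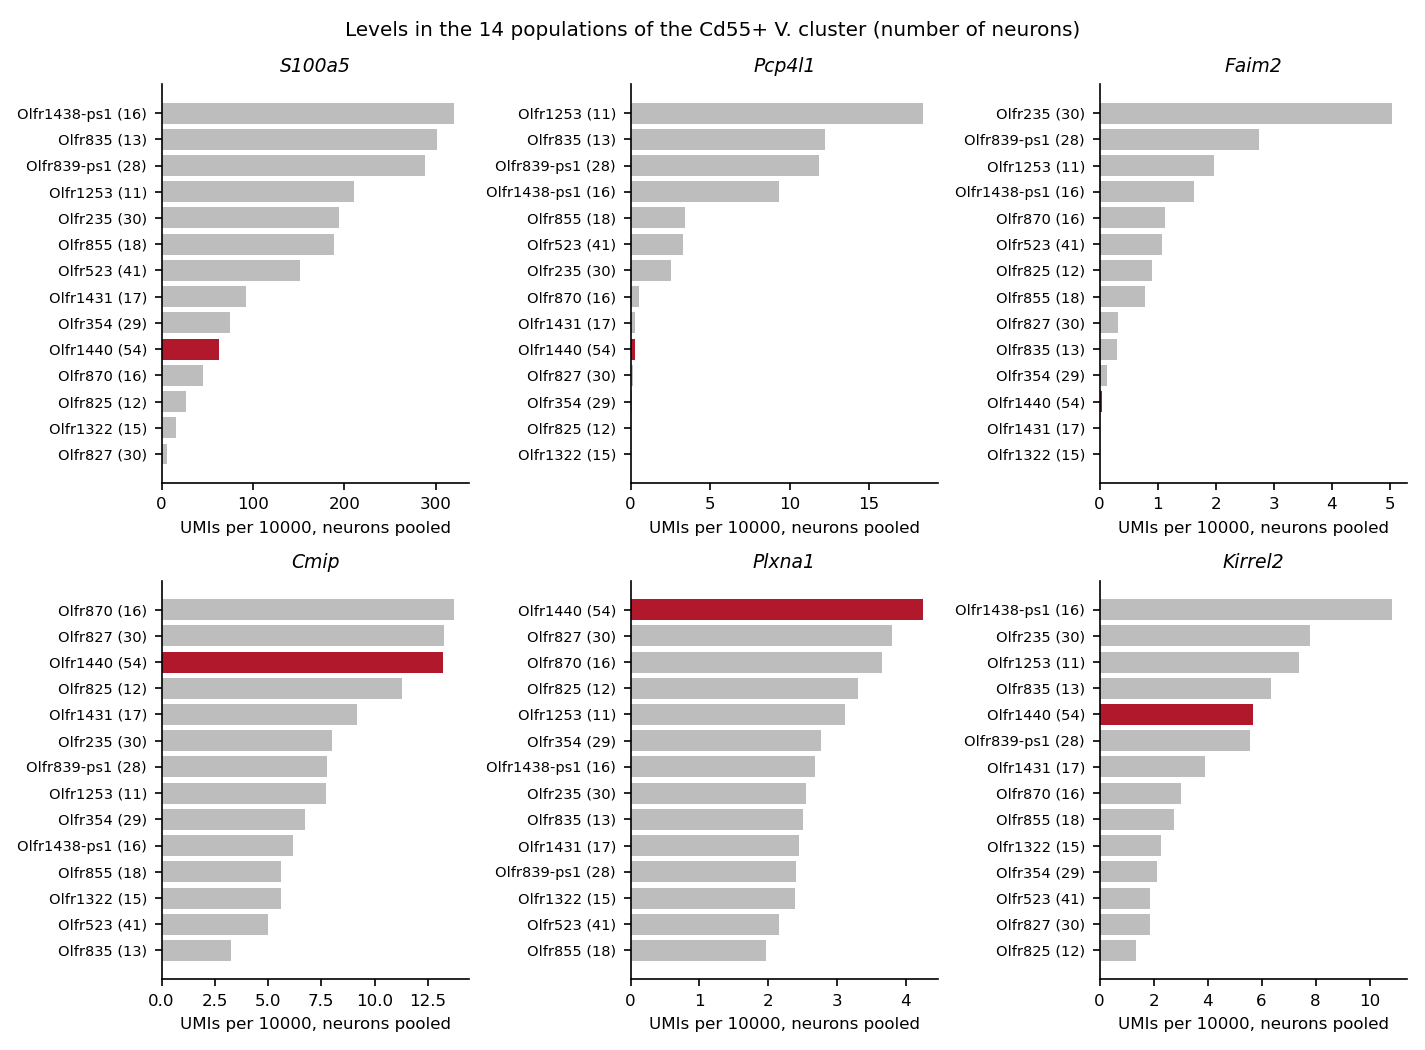
Levels of 6 genes (horizontal axis, UMIs per 10000 non-receptor UMIs, neurons of all mice pooled) in the 14 populations most frequent in Cd55+ V. with at least 10 neurons (number in parentheses). Olfr1440 is in red, and neurons of a population outside the cluster are counted too. Olfr1440 ranks 10th for S100a5 and Pcp4l1, 12th for Faim2, 3rd for Cmip, 1st for Plxna1 and 5th for Kirrel2.

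The Olfr1440 neurons were next compared with each of the 3 largest other populations that were most frequent in the cluster, namely Olfr523 (41 neurons), Olfr235 (30) and Olfr827 (30), over 1031 genes each. All neurons of a population entered its sums, and 24, 16 and 30 of them lay in the cluster. Against Olfr523, 9 genes were higher (0.873%) and 10 lower (0.97%). Against Olfr235, again 9 were higher (0.873%) and 10 lower (0.97%), and against Olfr827, 7 were higher (0.679%) and 1 lower (0.097%). The same Olfr1440 sums entered all 3 contrasts, which are therefore not independent.

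S100a5 showed both directions. It was at 143, 161, 120 and 192 in Olfr523 and at 188, 141, 201 and 248 in Olfr235, above every Olfr1440 value (log2 change −1.29 and −1.65, edgeR adjusted p = 0.000208 and 1.48e-06). In Olfr827 it was at 1.24, 1.19, 1.39 and 25.1, below every Olfr1440 value (log2 change 3.49, edgeR adjusted p = 5.01e-12). The 3 contrasts kept these calls without the block and without any 1 mouse, but the value of Olfr827 in mouse 4 stood apart, and without that mouse the log2 change was 5.64.

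Against Olfr523, the transmembrane adhesion protein Tenm2 was at 0.919, 2.12, 2.04 and 1.32 in the Olfr1440 neurons and at 0.138, 0, 0 and 0 in Olfr523. Zpld2, a zona pellucida domain protein, was at 3.54, 3.92, 3.18 and 4.70 against 0.415, 0.501, 0.255 and 0 (log2 change 3.38, edgeR adjusted p = 1.93e-06). Kirrel2 and Cmip were also higher, by 1.59 and 1.38. Each of these genes was higher in every mouse without overlap.

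Against Olfr235, whose receptor gene lies close to Olfr1440, Tmbim6, a regulator of calcium in the endoplasmic reticulum, was at 7.88, 9.33, 6.13 and 6.96 in the Olfr1440 neurons and at 23.6, 23.8, 27.5 and 31.4 in Olfr235. The values did not overlap (log2 change −1.83, SE 0.16, edgeR adjusted p = 1.57e-13). Faim2, with 1 UMI in the Olfr1440 neurons, was at 5.49, 4.94, 4.31 and 5.87 in Olfr235, and Cd55 was higher by 1.98. Adcy3 and Cnga2 were lower by −0.77 and −0.89 (edgeR adjusted p = 0.024 and 0.0169). For Adcy3 the call was lost without mouse 1, 2 or 3 or the block, and for Cnga2 without mouse 3 or 4, with adjusted p up to 0.355 and 0.25.

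Against Olfr827, the guidance receptor Epha5 was at 2.49, 3.92, 4.77 and 4.51 in the Olfr1440 neurons and at 0.744, 1.49, 0.347 and 0.688 in Olfr827 (log2 change 2.34, edgeR adjusted p = 6.4e-05). Kirrel2 was higher by 1.74. The values of both genes did not overlap between the groups. Over the 3 contrasts, Cd55, Cmip, Kirrel2 and Tsc22d1 were higher in 2, Faim2, Pcp4l1, S100a5 and Sult1d1 were lower in 2, and 0 genes were called in the same direction in all 3. Cd55 names the cluster, which held 92.6% of the Olfr1440 neurons but 58.5% of the Olfr523 and 53.3% of the Olfr235 neurons. Its calls against these 2 populations cannot be told apart from cluster membership. The same holds for the calls of Faim2, Pcp4l1 and S100a5 there, and of Adcy3 and Cnga2 against Olfr235. Their means were 1.28, 3.60, 124, 8.49 and 4.57 in the other neurons of the cluster. In all other OSNs they were 9.23, 19.0, 241, 11.1 and 7.36. Kirrel2, higher against Olfr523, went the other way, with 3.95 in the cluster and 6.65 in all other OSNs. Some calls of the 3 contrasts were lost in most of 5 alternatives (no block, or 1 mouse left out). Cd55 against Olfr523 (log2 change 0.63 to 1.64), Cmip against Olfr235 and Sult1d1 against Olfr827 were lost in 4, and Tsc22d1 against Olfr827 in 3.

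Against all other OSNs with an identity, the genes of the whole cluster came into view. With genes required to reach 20 UMIs once both groups were scaled to the depth of the Olfr1440 sums, 4410 genes were tested, of which 125 were higher (2.83%) and 122 lower (2.77%), 247 in all (5.6%). Of these, 105 and 94 did not overlap between the groups. Called genes were selected for a difference, and the share without overlap over all genes tested was not counted. With edgeR's own filter on low counts the split was 65 higher and 212 lower, and the median of all genes moved from 0.00 to −0.24. Cd55, Olig1 and Zpld2 were also high in the other populations most frequent in the cluster, all neurons of each counted. Median levels were 16.3, 3.95 and 3.03 there, against 0.114, 0.762 and 0 over the 353 populations.

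The complement regulator Cd55 was at 17.9, 17.9, 23.9 and 20.5 against 1.83, 2.21, 2.19 and 1.80 (log2 change 3.22, edgeR adjusted p = 1.67e-78). Zpld2 was higher by 3.98 and the protocadherin Pcdh11x by 3.40, at 2.76, 2.54, 2.73 and 3.20 against 0.192 to 0.302. Neither gene's groups overlapped.

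The transcription factors Olig1 and Olig2, known from the oligodendrocyte lineage, were higher by 2.13 and 1.83. Olig1 stood at 6.04, 4.77, 6.82 and 5.27 against 1.09 to 1.33. Tppp3, a microtubule-associated protein, was higher by 2.19, the deiodinase Dio2 by 2.13 and the cilia-associated Cfap52 by 3.18. Tppp3 and Dio2 had means of 4.35 and 1.14 here, against 4.11 and 1.16 in the other neurons of the cluster. For Cfap52 the means were 1.25 and 0.805. Sorbs2 and Plxna1 were higher by 1.88 and 1.54, here in 4 of 4 mice and without overlap. Gm16083, which overlaps Cd55 on the opposite strand, and Gm26512, which overlaps Dio2, were higher as well, as were the overlapping genes Gng3 and Bscl2, and the counts of overlapping genes are uncertain. Gm16083 and Bscl2 could be tested in only 3 of 8 alternatives, Gm26512 in 4 and Gng3 in 6.

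Of 14 genes that mark OSN subsets, 7 were at 0 UMIs in the Olfr1440 neurons. The dorsal marker Nqo1, also at 0, was at 7.25, 8.21, 8.66 and 5.30 in the other OSNs and at least 65.1-fold lower here, taking 3 counts over the group as the floor. Calb2, a calcium-binding protein of another subset, was at least 32.9-fold lower, Mslnl at least 34.1-fold and the growth factor Ptn at least 23.4-fold. Pcp4l1 was lower by −6.21 (−6.89 without mouse 2) and Dlg2 by −4.07. S100a5 was at 245, 210, 260 and 247 in the other OSNs, so that its log2 change was −2.05 (edgeR adjusted p = 1.91e-49). Stoml3, a membrane protein of OSN cilia, was at 49.4, 49.6, 41.6 and 49.5 against 80.4 to 89.7. All of these were lower in 4 of 4 mice. Several low levels were shared by the rest of the Cd55+ V. cluster. In its other neurons Cd36, Pcp4 and Calb1 were at 0 too, and Mslnl, Ptn and Stoml3 had means of 0.0752, 0.0856 and 49.4. Nqo1 and Calb2 were detected more there, with means of 2.00 and 0.625.

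Of the olfactory transduction genes, 12 of 22 tested were lower and 0 higher (2.77% and 2.83% of all genes), with a median log2 change of −0.42 against 0.00 over all genes tested. Cnga2, the channel subunit, was at 3.15, 3.92, 3.41 and 2.63 against 7.03, 7.45, 7.35 and 7.62 (log2 change −1.20, SE 0.15, edgeR adjusted p = 1.05e-11). Ano2 was at 0.656, 1.17, 1.59 and 0.94 against 2.50 to 3.34 (−1.58, edgeR adjusted p = 1.35e-08). Neither gene overlapped between the groups.

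The phosphodiesterases Pde1c and Pde4a, which degrade cAMP, were lower by −1.36 and −1.20. Adcy3 was lower by −0.83, although its value in mouse 4 (10.7) lay within the range of the other OSNs (9.84 to 11.9). Omp (−0.44) and Gng13 (−0.42), the gamma subunit of the G protein, were lower in all mice. Gnal (−0.29), Gnb1 (−0.29), Gfy (−0.32), Cnga4 (−0.48) and Ric8b (−0.43) lost their call in 5 or 6 of 8 alternatives, whereas the other 7 genes kept it in all 8. Within the cluster the same genes were not called, as given above.

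**Figure D3:**
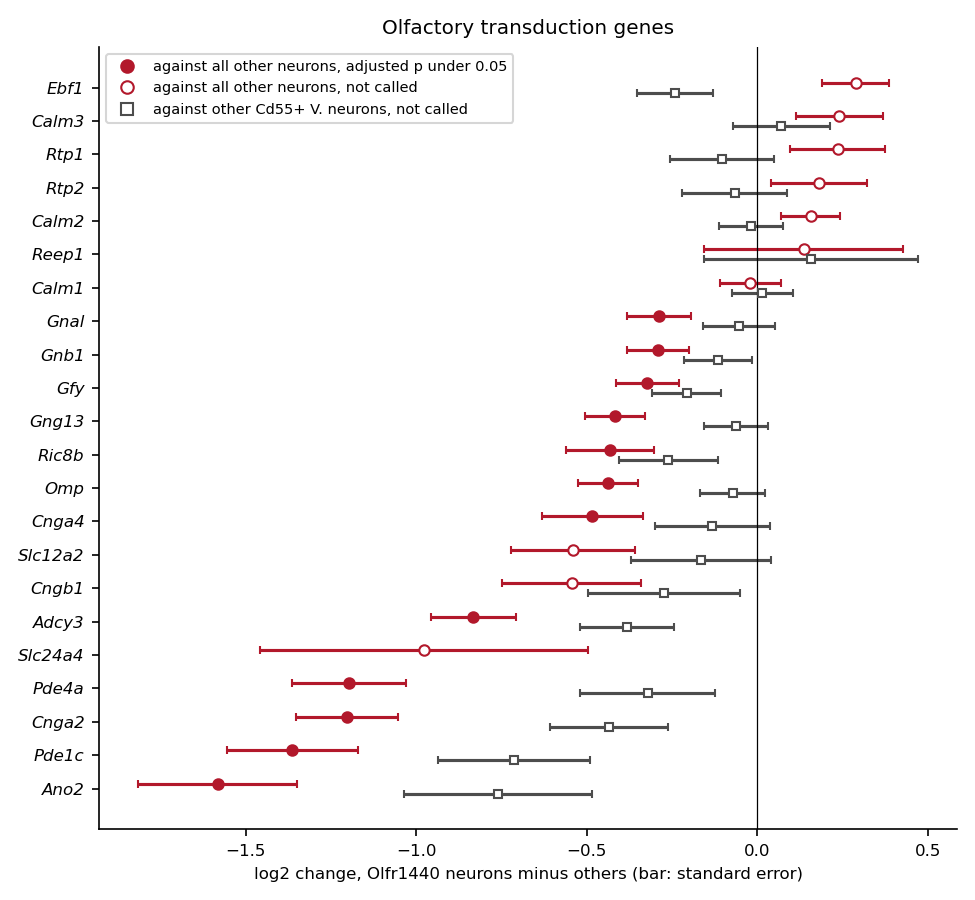
Log2 change with its standard error (horizontal axis) of the olfactory transduction genes in Olfr1440 neurons, against all other OSNs (circles, filled where the edgeR adjusted p was under 0.05) and against the other neurons of the Cd55+ V. cluster (squares). Of the circles 12 are filled, all below 0, while 0 of the 21 squares are.

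Of the immature neuron genes, 3 of 10 tested were higher than in all other OSNs (Stmn1 by 0.90, Tubb3 by 0.52 and Dpysl3 by 2.74) and 0 lower, against 2.83% and 2.77% of all genes. Gap43 was too low to be tested (3 UMIs, 0.112 per 10000). Stmn1 was at 1.84, 2.76, 4.32 and 1.5 against 1.23 to 1.37, and its call was lost without mouse 2 or 3 (edgeR adjusted p = 0.0906 and 0.0817) and in DESeq2 (0.0527). Tubb3 lost it without mouse 2 (edgeR adjusted p = 0.128) and with edgeR's own filter (0.158). Stmn1, Tubb3 and Dpysl3 had means of 2.60, 8.70 and 0.701 here, against 1.54, 9.10 and 0.245 in the other neurons of the cluster.

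Of 19 axon guidance and adhesion genes tested, 2 were higher (Kirrel, Plxna1) and 2 lower (Epha5, Sema7a), against the same 2.83% and 2.77% of all genes, and Epha5 lost its call without mouse 1 (adjusted p = 0.108). Of 6 non-clustered protocadherins, 2 were higher, Pcdh8 (1.5) and Pcdh11x, and 2 lower, Pcdh10 (2 UMIs) and Pcdh17 (−2.87, and −4.81 without mouse 2, which held 5 of the 6 UMIs). Nfix was higher by 0.60 and the neuropeptide gene Cartpt by 0.64. Cartpt had a mean of 20.5, against 22.3 in the other neurons of the cluster. There, Kirrel, Epha5, Sema7a and Pcdh8 had means of 1.35, 3.19, 0.430 and 2.10, against 1.42, 3.93, 0.403 and 1.51 here. Pcdh10 and Pcdh11x stood at 0.172 and 1.79 there, against 0.0735 and 2.81 here. Plxna1 and Pcdh17 were called within the cluster as well. The call of Nfix was lost without mouse 2 (edgeR adjusted p = 0.0819), without the block (0.0505) and with edgeR's own filter (0.0837).

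The position of the receptor gene was examined next, since neighbouring OR genes can share regulatory elements. Olfr1440 lies in a run of 91 receptor genes on chromosome 19 in which no gap exceeds 1 Mb. Of these, 39 had a clustered population of at least 3 neurons. Most frequent in Cd55+ V. were 5 of the 39 (12.8%) and 19 of all 798 such populations (2.38%). Olfr1440 is counted in both, although Cd55+ V. was chosen as its own most frequent cluster. All 5 lay among the 11 receptor genes from Olfr1431 to Olfr1440, between 12200634 and 12401584 (201 kb), a stretch picked out after the values were seen. They were Olfr1431 (16 of 17 neurons in the cluster), Olfr235 (16 of 30), Olfr1434 (3 of 3), Olfr1438-ps1 (12 of 16) and Olfr1440 (50 of 54). The sixth population of this stretch, Olfr1437, had 0 of 24 neurons there and was most frequent in Ventral. Together the 5 populations gave 97 neurons, or 27.6% of the cluster, and 50 of the 97 were Olfr1440 neurons.

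The 5 receptors with a population of at least 3 neurons whose proteins were most similar to Olfr1440 were the 5 others of this stretch. Identity was highest for Olfr1431 and Olfr1434, at 63.8%, followed by Olfr1437 at 63.5%, Olfr1438-ps1 at 62.7% and Olfr235 at 62.5%, against a median of 41.9% over 796 receptors. Next came Olfr76, outside the stretch, at 59.0%. Position and sequence therefore cannot be told apart for these receptors, and Olfr1437 shares both without sharing the cluster. The 18 receptors of Cd55+ V. populations had a median identity of 42.9% with Olfr1440.

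**Figure D4:**
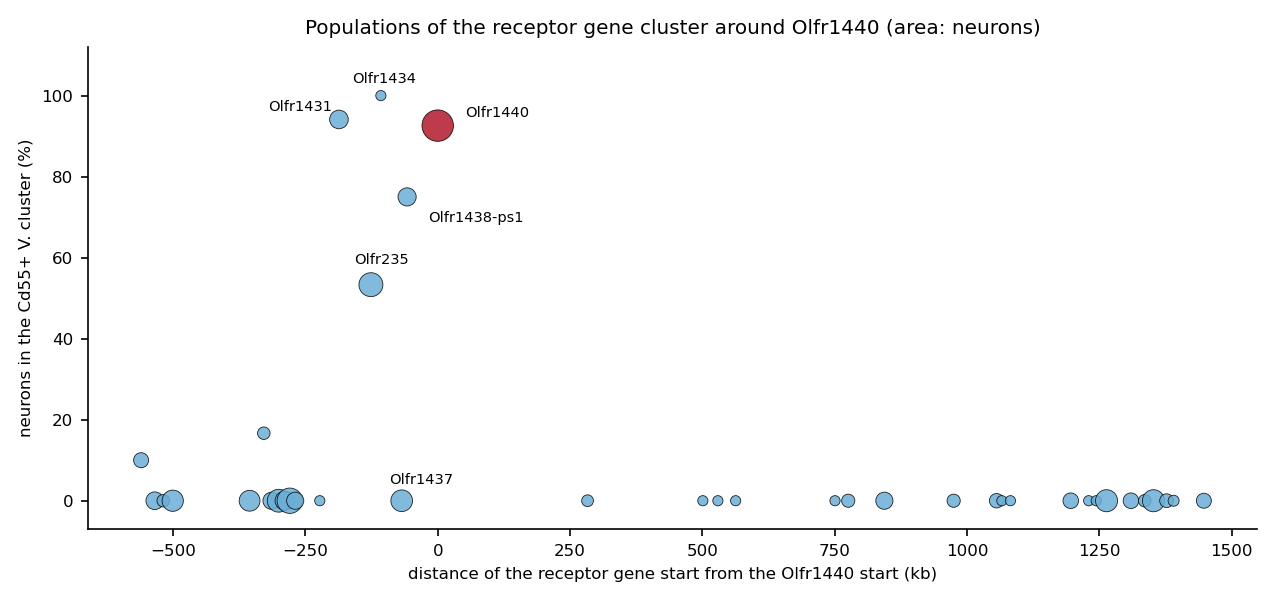
Share of neurons in the Cd55+ V. cluster (vertical axis, percent) for the 39 populations of the receptor gene cluster, against the distance of the gene's start from that of Olfr1440 (horizontal axis, kb), with point area for the number of neurons. Of the 5 populations above 50%, Olfr1440 is 1 and the others lie within 187 kb of it on 1 side. Olfr1437, in the same stretch, is at 0. On the other side the nearest clustered population, Olfr1442, lies at 283 kb, so that side is empty within 187 kb.

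The transcriptomic likeness between populations was measured as the distance between centroids on 15 principal components, made within each mouse without receptor genes. Among the 122 other populations for which every mouse had 3 or more neurons, Olfr870 was nearest (7.54 ± 1.11, SD, n = 4), followed by Olfr827 (8.25 ± 1.86), Olfr354 (9.86 ± 1.11), Olfr1438-ps1 (10.9 ± 0.636) and Olfr523 (11.1 ± 2.43). The median distance was 21.2 and the largest 32.8. Neighbours in this order differed by no more than the larger of their SDs. The genes of these 5 receptors lie on chromosomes 9, 10, 2, 19 and 7, and the protein identity with Olfr1440 was 44.4%, 43.0%, 41.7%, 62.7% and 42.8%. Olfr235, close in both position and sequence, ranked 8th, behind 2 populations of the Ventral cluster, Olfr279 and Olfr295. Smaller populations have noisier centroids, and no test was made.

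**Figure D5:**
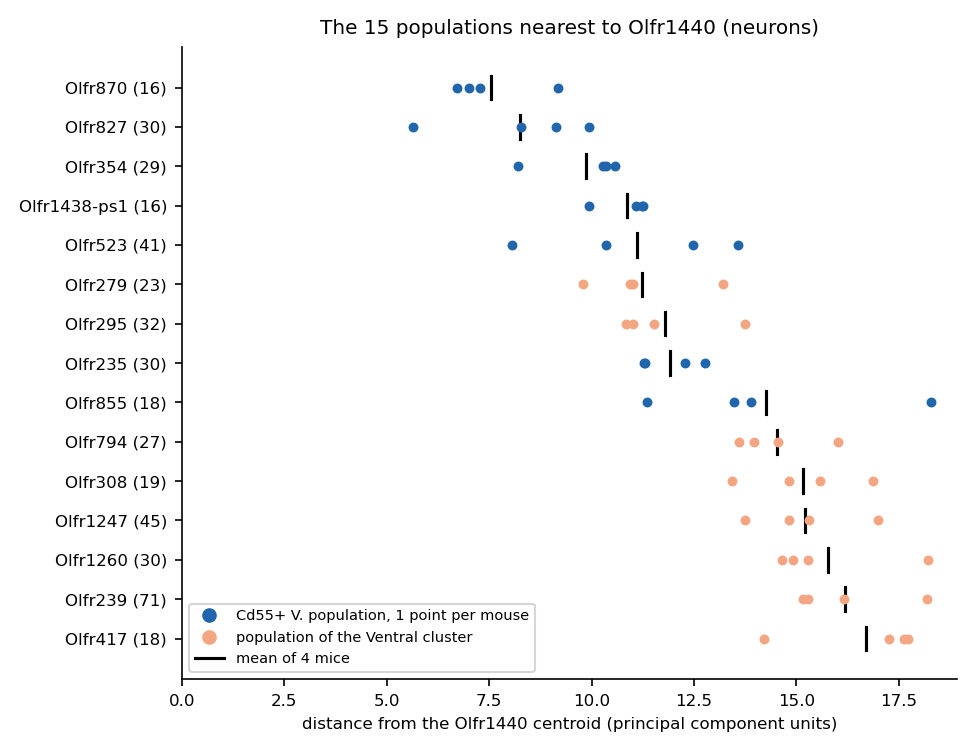
Distance from the Olfr1440 centroid (horizontal axis, principal component units) of the 15 nearest of 122 populations, with 1 point per mouse and a bar for the mean. Olfr870, Olfr827 and Olfr354 of the Cd55+ V. cluster are nearest, and Olfr279 and Olfr295 of the Ventral cluster come before Olfr235.

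The mean distance between 2 Olfr1440 neurons of the same mouse was 18.1, 15.1, 18.3 and 16.8, against 19.5, 17.4, 19.96 and 17.8 to the other neurons of the cluster and 28.4, 25.2, 29.6 and 26.1 to all other OSNs. The ratio of within to cluster distance was below 1 in 4 of 4 mice (0.870 to 0.947, mean 0.917 ± 0.0336). The exact sign-flip permutation test over mice (two-sided) gave p = 0.125, the smallest value that 4 mice allow. With log-normalised counts in place of the sctransform residuals, the ratio was 0.962 ± 0.0409, below 1 in 3 of 4 mice and 1.01 in mouse 3 (exact sign-flip p = 0.25). The ratio was 0.812 in Olfr523, 0.811 in Olfr235 and 0.788 in Olfr827, and the differences between populations were not tested. All neurons of a population were measured, and only 58.5% of Olfr523 and 53.3% of Olfr235 neurons lay in the cluster. The mean distance to the cluster was 20.2, 20.6 and 18.4 in these 3 populations and 18.6 in Olfr1440, so the ratios are not strictly comparable.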

How the data were processed

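Dissociated cells of the main olfactory epithelium of 4 mice were profiled by 10x Genomics 3′ RNA-seq. The authors aligned reads with Cell Ranger 6.0.1 to GRCm38, with an annotation in which the 3′ ends of receptor genes had been redrawn, and deposited unnormalised UMI counts for each gene in each called barcode. Per cell they also deposited the number of UMIs, the ratio of UMIs to detected genes (not used), the mitochondrial percent, its type and cluster from Seurat, and the assigned receptor. The authors retained 15859 cells, in which mitochondrial UMIs reached at most 9.98% and detected genes numbered at least 1001, and 10519 of these were mature OSNs. Doublets were not called again, and a receptor identity required a single receptor above a limit.

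Receptor genes (1430) were left out of all sums. UMI counts were summed per mouse and group and tested in edgeR 4.0.16 (R 4.3.3) with TMM, filterByExpr and Benjamini-Hochberg adjustment at 0.05. Both sums of a mouse come from 1 animal and 1 library, which pairs them, so mouse was a block. The deviations of same-mouse sums correlated at 0.146, 0.0382, 0.0414 and 0.0235. DESeq2 1.42.0 was an alternative. Distances used sctransform 0.4.2 residuals of 5000 variable genes in Seurat 5.3.0, and protein identity a global alignment in Biopython 1.88 of sequences translated from GENCODE M21 on GRCm38.

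On simulated counts for the comparison within the cluster (3595 genes), the test recovered 45% of genes changed 2-fold and 97% of those changed 4-fold, with 2.74% of the calls false. The changed genes were drawn only from those with many UMIs. Every gene had the same dispersion, and no difference between mice was simulated. The rates therefore do not apply to genes with few UMIs, such as Pcdh17. Genes were named if called with the same direction in 4 of 4 mice, up to 12 per direction that reached 1 UMI per 10000 and 5 below it, with the members of the gene lists and a fixed set of marker genes. The members and the gene lists were chosen with earlier results of these data known. The filter for the comparison with all other neurons was chosen after seeing the data.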

Additional observations from a re-analysis of the deposited data

Results flagged for a closer look

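Faim2 was flagged because a single mouse stood apart among the Olfr1440 neurons, with 0.106 UMIs per 10000 in mouse 2 and 0 in the other 3 mice, a value that rests on 1 UMI. Tsc22d1 was flagged for the other neurons of the Cd55+ V. cluster, where mouse 4 stood at 12.3 per 10000 and mice 1 to 3 at 9.40, 9.10 and 9.35. These were 2 of 39 groups of values tested for such a sample, and chance flags about 1 in 20 groups.

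Olfr1440 was also present in cells that entered no comparison, the immature OSNs of type iOSN2, in 0.795% of the cells. In the same libraries 5 of 866 cells of type iOSN1 held 1 Olfr1440 UMI each, and 1 of 1768 type 2 microvillar cells and 0 of 336 sustentacular cells held an Olfr1440 UMI.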

How the results depend on the processing

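S100a5, Pcp4l1, Faim2 and Cmip kept their direction and their call in the 14 alternatives to the comparison within the cluster. Plxna1 lost its call in 9 of the 14, Sorbs2 and Tsc22d1 in 7, Prxl2a in 5 and Gm49542 in 3. Dlg2 lost it in 3 of the 12 in which it was tested and Pcdh17 in 2 of 13. For genes lost in DESeq2 or in fits on fewer mice or UMIs, the cause was not tested.

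The 11 called genes (4 higher, 7 lower, 5 of them in the gene lists) became 4 in DESeq2 (1 higher, 3 lower, 2 in the lists), 5 in neurons thinned to 5000 UMIs (1 higher, 4 lower, 2 in the lists), and 277 against all other neurons with edgeR's filter (65 higher, 212 lower, 59 in the lists). With no filter 1 gene was higher and 14 lower, and with populations weighted equally 1 was higher. Leaving out each mouse gave 5 to 15 called genes, 1 to 6 higher, 4 to 9 lower and 3 to 7 in the lists, the fewest without mouse 2. Thinning left 24 Olfr1440 neurons.

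Without the replicate block, which pairs the sums of a mouse, 10 genes were called, all among the 11, and Plxna1 was lost (adjusted p = 0.105). It gave 11 genes in place of 19 against Olfr235, 4 in place of 8 against Olfr827, and 77 lower genes in place of 122 against all other neurons. It changed the count of calls by less than 1.5 times elsewhere. Leaving out each mouse gave 13 to 21 genes against Olfr523, 7 to 16 against Olfr235 (7 without mouse 2, 9 without mouse 3, 12 without mouse 4) and 4 to 10 against Olfr827 (4 without mouse 1).

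Against all other neurons, 247 genes became 109 in DESeq2 (60 higher, 49 lower) and 118 to 207 without 1 mouse (59 to 102 higher, 59 to 105 lower, fewest without mouse 1 and next without mouse 2, 123). EdgeR's filter gave 65 higher and 212 lower.

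The direction turned for 3 values that were not called in the main comparison or changed with the reference. Cd55 was at −0.013 with no filter, Kirrel2 at −0.43 and Gm49542 at 1.63 against all other neurons. The shares of neurons moved by less than 1 SD, while the distance ratio moved from 0.917 to 0.962 with log-normalised counts and was then below 1 in 3 of 4 mice. Without 1 mouse the share in the cluster was 90.1 to 95.2%, the share of all OSNs 0.451 to 0.603% and the distance ratio 0.907 to 0.933. With 7 to 20 neurons per mouse, genes below about 1 UMI per 10000 rest on a handful of UMIs.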
